A study of Mus musculus with 6 samples.

Results

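The tumour necrosis factor (TNF) superfamily was followed on arrays of C3H10T1/2 cells, a mouse mesenchymal cell line, grown past confluence with or without the growth factor BMP4. Its members were taken by symbol: every probe set with a single gene symbol in the platform annotation that starts with Tnfrsf or Tnfsf, or is Tnf, Fas, Fasl, Cd40, Ltb or Ltbr. This gave 33 of the 18194 genes named by a single symbol on the array, read by 55 of its 45101 probe sets. They comprise 10 ligands, 5 receptors with a death domain, 3 decoy receptors, 14 other receptors, and Tnfsf13os, a transcript of the strand opposite Tnfsf13 that the symbol rule takes in but that is no ligand. A further 3 probe sets that carry several symbols of the family, among them those of Tnfsf12 and Tnfsf13, were left out.

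The study asked which genes respond to BMP4 as these cells commit to the adipocyte lineage. Proliferating cells of the BMP4 group were exposed to 50 ng/ml of the factor, control cells were not, and RNA of both groups was taken after confluence. Each group held 3 samples on 1 array each. Nothing in the labels makes the samples of a group independent cultures, and the tests therefore weigh differences against a spread between samples that may be only technical.

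Ligands of this family are mostly trimeric membrane proteins that can be shed. Their receptors carry cysteine-rich repeats outside the cell and, inside it, either a death domain, which can recruit caspases, or motifs that bind TRAF adaptors and switch on the transcription factor NF-kappaB. Decoy receptors bind a ligand without passing on a full signal. In mesenchymal cells the family is best known for osteoprotegerin and RANKL, which control osteoclast formation, and for the inhibition of fat cell formation by TNF.

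Values are array signals in arbitrary units. They compare one probe set across arrays, and different probe sets cannot be ranked by abundance. The highest signal of the bacterial control probe sets on any array, 29.1, was taken as background. Per array this maximum was 23.5 to 29.1 with BMP4 and 16.6 to 21.0 in controls, and 56% to 59% of probe sets lay above 29.1 with BMP4 against 54.4% to 55.7% without it. The part of this gap in small rises of dim genes was not tested. All 8 mesenchymal markers examined (among them Col1a1 and Vim) were above background on all 6 arrays. The macrophage markers Ptprc and Itgam were above it on none, while Cd68, Csf1r, Adgre1 and Cd14 were above it on all 6. Lyz2, the other macrophage marker, ranged from 49.7 to 58.8 with BMP4 and from 17.5 to 40 in controls, so the groups did not overlap (log2 0.65, limma adjusted p = 0.0853). The summed signal of the 7 macrophage markers ran from 450 to 613 with BMP4 and from 433 to 456 in controls. The lymphocyte markers Cd3e, Cd3g, Cd2 and Cd79b were at background on every array. Cd79a was above it on 3 arrays and Ms4a1 on 2, with overlapping groups, and the 6 markers on the array summed to 87.5 to 126 with BMP4 and 72 to 101 in controls. Of 6 endothelial markers, Pecam1 and Tie1 were above background on no array and Tek on all 6, and their sum was 147 to 245 with BMP4 against 234 to 259. Tek itself fell by 0.69 on the log2(signal + 16) scale (limma adjusted p = 0.0167), a call lost without BMP4 replicate 3 or control replicate 1 or 3 (0.0523 to 0.0788). The part of these other cell type markers in the results was not tested.

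Promoter sequence frames the comparison below between receptors and the genes that NF-kappaB is known to drive. RefSeq promoter windows (GRCm38.p6) were found for 26 of the 33 member genes, and not for Tnfrsf11b (osteoprotegerin). Shown here are the 250 bases before the start of Tnfrsf12a, the receptor that rose most, of Tnfrsf1a, the main TNF receptor, which did not pass the test, and of Il6, a textbook NF-kappaB target that fell. Capitals mark a match to the 10-base kappaB consensus on either strand, and the windows without capitals hold no such match. The windows are chr17:23677450-23677699 (minus strand) for Tnfrsf12a, chr6:125349473-125349722 (plus strand) for Tnfrsf1a and chr5:30012864-30013113 (plus strand) for Il6, each printed 5′ to 3′ on the strand of its gene.
Tnfrsf12a: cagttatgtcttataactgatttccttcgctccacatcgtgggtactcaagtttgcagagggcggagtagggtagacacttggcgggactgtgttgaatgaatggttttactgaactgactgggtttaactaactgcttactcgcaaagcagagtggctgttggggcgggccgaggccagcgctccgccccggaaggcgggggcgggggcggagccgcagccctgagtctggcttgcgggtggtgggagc
Tnfrsf1a: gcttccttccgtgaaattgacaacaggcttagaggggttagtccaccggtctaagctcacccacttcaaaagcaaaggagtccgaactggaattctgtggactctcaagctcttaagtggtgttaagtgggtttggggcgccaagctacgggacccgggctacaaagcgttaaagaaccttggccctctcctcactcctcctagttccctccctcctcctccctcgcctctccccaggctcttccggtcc
Il6: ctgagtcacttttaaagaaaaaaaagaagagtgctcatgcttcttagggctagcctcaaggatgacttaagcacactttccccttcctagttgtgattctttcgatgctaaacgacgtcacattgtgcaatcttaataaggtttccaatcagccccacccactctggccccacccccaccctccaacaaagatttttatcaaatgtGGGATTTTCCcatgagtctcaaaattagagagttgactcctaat
The Il6 match, GGGATTTTCC, begins 44 bases before the start. Of 30 member windows 4 held a kappaB match (13.3%), those of Ltb, Tnfrsf25, Tnfrsf8 and Tnfrsf9, against 7.25% of all 32851 windows. The AP-1 motif TGANTCA was in 16.7% of member windows and 6.75% of all, GGCGCC, a motif bound by BMP-activated Smads, in 10% and 9.59%, and the Runx motif TGTGGT in 6.67% and 14%, each searched on both strands. The motifs were searched independently, so matches of different motifs may overlap. These matches are descriptions of letters and show no binding.

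Of the 55 member probe sets 17, for 12 genes, were above background on all 6 arrays, 18 were above it on some and 20 on none. The plot of signals on each array shows that receptors supplied nearly all of the measured family. Of 10 ligand genes 1, Tnfsf13b, was above background on all 6 arrays, on its brightest probe set only, while 5 had no probe set above it on any. In contrast 3 of 5 death domain receptors, 3 of 3 decoy receptors and 5 of 14 other receptors were above it on all 6. After leaving out dim probe sets (mean log2 over all arrays at or under the 40th percentile, a signal of 23.5), 25 member probe sets of 19 genes were tested and 30 were not.

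**Figure D1:**
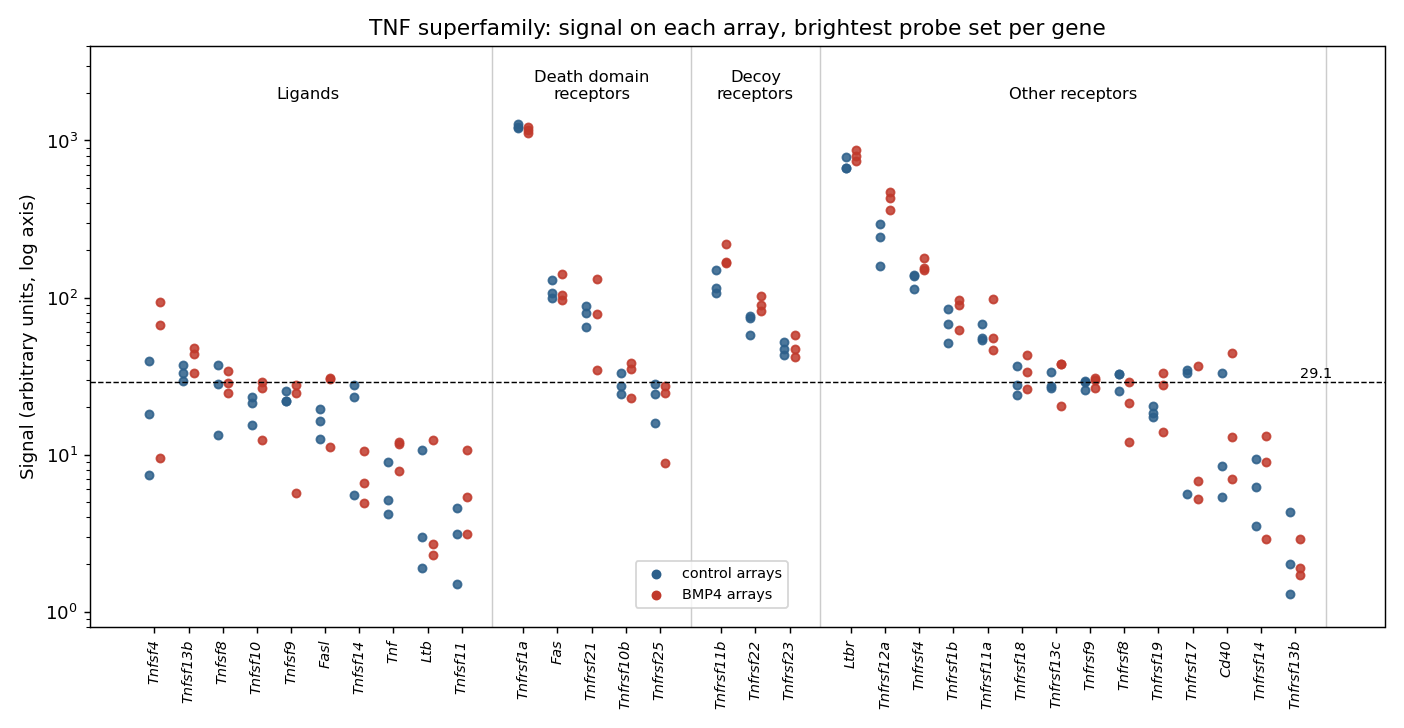
Signal (arbitrary units, log axis) of the brightest probe set of each of 32 family genes on the 3 control and 3 BMP4 arrays, ordered by role, with Tnfsf13os left out. The dashed line is the highest bacterial control signal, 29.1. Most ligands lie under the line, and Tnfrsf1a, Ltbr, Tnfrsf12a, Tnfrsf11b and Tnfrsf4 lie above it on every array.

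With BMP4, 2 receptor genes were higher and no member was lower. Tnfrsf12a (Fn14, the receptor for TWEAK) and Tnfrsf11b (osteoprotegerin, the soluble decoy for RANKL) each passed the test on both of their probe sets. Thus 4 of 25 tested member probe sets rose and 0 fell (limma, adjusted p at most 0.05). Over all 27022 tested probe sets 4.20% rose and 4.91% fell, and with arrays centred on their medians the share of calls that were rises went from 46.1% to 25.1%. The 4 called sets read 2 genes, so they are not independent. By gene 2 of 19 tested rose, where 5.03% of all 12966 genes rose and 5.66% fell by their brightest probe set. At an unadjusted p under 0.05 there were 6 member probe sets, the 4 called ones among them, and all were higher with BMP4. Of all tested probe sets 11.5% were higher and 11.0% lower by that rule. With median centring the 6 became 4. The median log2 difference was 0.13 over the tested member probe sets and 0.03 over all tested. In bulk RNA, a difference in the number of cells that express a gene and one in RNA per cell cannot be told apart.

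Tnfrsf12a, which is induced by growth factors in fibroblasts, had signals of 363.4, 431.0 and 467.8 with BMP4, against 158.5, 243.7 and 294.6 in controls. The groups did not overlap, and control replicate 1 was the lowest of all. The means were 421 ± 53.0 and 232 ± 68.8 (SD, n = 3), a ratio of 1.81 and a log2(signal + 16) difference of 0.85 ± 0.18 (SE, limma adjusted p = 0.0121). Its other probe set (an _x_at set, which can bind related sequences) gave 323.8, 383.3 and 458.9 against 162.0, 248.8 and 221.9. That is a log2 difference of 0.84 ± 0.15 (adjusted p = 0.00529), and both sets read the same transcripts, so they are not independent. Leaving out 1 array at a time gave 0.61 to 1.03 and 0.68 to 0.96, with the lowest values without control replicate 1 (0.61 and 0.68). Without the intensity trend the first set was not past the test (adjusted p = 0.0778), while the second was (0.0498).

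Tnfrsf11b binds RANKL and keeps it from its receptor RANK. On its brighter probe set signals were 169.5, 166.5 and 217.8 with BMP4, against 149.7, 115.0 and 106.9 in controls, a log2 difference of 0.52 ± 0.14 (SE, limma adjusted p = 0.0423). A second set had 130.4, 125.4 and 119.8 against 61.4, 62.1 and 102.9, a difference of 0.66 ± 0.17 (adjusted p = 0.0354). Again the groups did not overlap, and each set had a different control array nearest to the BMP4 arrays, replicate 1 for the first and replicate 3 for the second. The calls were close to the threshold. Both sets were lost without BMP4 replicate 1 (0.0558 and 0.0894), BMP4 replicate 2 (0.0584 and 0.0896), BMP4 replicate 3 (0.136 and 0.0721) or control replicate 2 (0.132 and 0.124). The brighter set was also lost without control replicate 3 (0.134) and the dimmer one without control replicate 1 (0.126). With no filter on dim probe sets (0.0926 and 0.084), with median centring (0.0991 and 0.0622) and without the intensity trend (0.11 and 0.0864) neither passed.

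**Figure D2:**
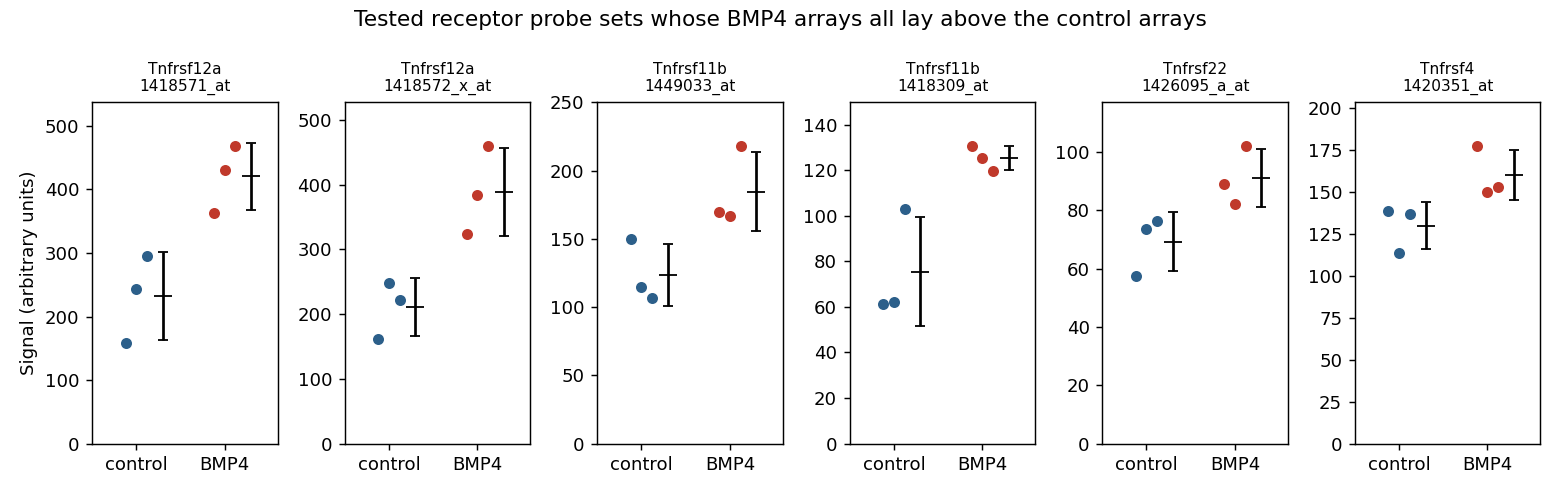
Signal (arbitrary units, axis from 0) on the 3 control and 3 BMP4 arrays, with mean and SD beside the points, for the 6 tested member probe sets whose groups did not overlap. Both Tnfrsf12a and both Tnfrsf11b sets passed the test, and Tnfrsf22 and Tnfrsf4 did not.

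The other decoys bind TRAIL. Tnfrsf22 had signals of 89.1, 82.3 and 101.9 with BMP4, against 57.6, 73.6 and 76.3 in controls. These groups did not overlap either, but the log2 difference of 0.33 ± 0.15 was not past the test (limma adjusted p = 0.207), and a second set gave 0.27 (0.459). Its neighbour Tnfrsf23 had 58.0, 41.6 and 46.9 against 46.7, 43.0 and 52.4, with overlapping groups and a difference of 0.03 (95% interval -0.34 to 0.40, adjusted p = 0.946). In all, 6 of 25 tested member probe sets had every BMP4 array above every control array and 0 had the reverse, against 15.0% and 13.2% of all tested probe sets. Among the 6 are the 4 called sets of Tnfrsf12a and Tnfrsf11b, which read only 2 genes.

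No receptor with a death domain passed the test. Tnfrsf1a, through which TNF drives both NF-kappaB and cell death, had 1112.6, 1217.5 and 1168.1 with BMP4, against 1195.4, 1268.0 and 1219.3 in controls. The groups overlapped, and the interval of the log2 difference, -0.22 to 0.07 around -0.07, was the narrowest in this role group (limma adjusted p = 0.556). Fas, the classical death receptor, had 103.4, 140.9 and 96.1 against 128.7, 106.2 and 99.8, a difference of 0.01 (-0.32 to 0.35, adjusted p = 0.974). Tnfrsf21 (DR6) had 34.5, 130.4 and 78.6 against 79.3, 87.7 and 64.9. BMP4 arrays thus held both its highest and its lowest signal, and the difference was -0.06 (-0.74 to 0.61, adjusted p = 0.93), with -0.06 also on another set. Tnfrsf10b, the TRAIL receptor DR5, lay around background, with 0.11 (adjusted p = 0.799) on one set and -0.46 (-1.03 to 0.11, adjusted p = 0.328) on a dimmer one. Tnfrsf25 (DR3) was at background on all arrays and was not tested.

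Among the receptors without a death domain, Ltbr, the lymphotoxin beta receptor of stromal cells, had 791.1, 869.7 and 736.4 with BMP4, against 672.1, 670.9 and 786.8 in controls. The groups overlapped through control replicate 3, and the log2 difference was 0.17 (95% interval -0.02 to 0.36, limma adjusted p = 0.282). Tnfrsf4 (OX40, a costimulatory receptor known from T cells) had 177.2, 150.0 and 153.2 against 138.7, 113.9 and 137.1. All BMP4 arrays lay above all control arrays, but 0.27 ± 0.11 did not pass (adjusted p = 0.186). Of the 6 lymphocyte markers 4 were at background on every array beside it, and Cd79a and Ms4a1 were above it on 3 and 2 arrays. The part of such cells in the Tnfrsf4 signal was not tested. Tnfrsf1b, the second TNF receptor, had 61.8, 89.8 and 96.0 against 84.4, 68.1 and 51.4, a difference of 0.23 (-0.19 to 0.65, adjusted p = 0.52), and a dimmer set gave -0.05. RANK itself, Tnfrsf11a, had 98.4, 55.0 and 46.2 against 53.9, 55.3 and 68.2. Only BMP4 replicate 1 stood high, and the difference was 0.09 (-0.39 to 0.57, adjusted p = 0.857).

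The remaining receptors were dim. Tnfrsf18 (GITR), Tnfrsf13c (the BAFF receptor), Tnfrsf9 (an activation receptor of T cells) and Tnfrsf8 (CD30) were tested at signals around background, with log2 differences of 0.14, 0.06, 0.03 and -0.35, none past the test. Tnfrsf19 (TROY), a receptor of embryonic and progenitor cells, had 13.9, 33.2 and 27.8 with BMP4, against 20.4, 18.5 and 17.4 in controls on its brightest set and was not tested. Its other sets, also not tested, had means of 7.93 against 20.3 and 3.93 against 6.9. These means lay under background and the groups overlapped, so no direction is given. Cd40, Tnfrsf13b, Tnfrsf14 and Tnfrsf17, known mainly from immune cells, were not tested either.

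The ligands were at or near background. On its brightest set Tnfsf13b (BAFF, a survival factor of B cells) had 44.0, 33.1 and 47.9 with BMP4, against 29.5, 37.1 and 33.1 in controls. The groups overlapped, with a log2 difference of 0.22 (95% interval -0.18 to 0.62, limma adjusted p = 0.516). Another Tnfsf13b set, not tested, had 9.3, 23.7 and 15.2 against 15.9, 21.4 and 33.4, and a further one was above background on no array. Tnfsf4 (the OX40 ligand) had 67.3, 94.2 and 9.5 against 39.4, 18.1 and 7.4. With BMP4 replicate 3 at background and the others high, its difference was 0.80 with an interval of -0.26 to 1.87 (adjusted p = 0.364). Without that array it was 1.44 (adjusted p = 0.0274), so a single array decides whether Tnfsf4 passes. Tnfsf4 entered the test through its BMP4 arrays, as its control mean of 21.6 lay under the filter signal. Leaving out its low BMP4 array selects further on the same values, so no rise of Tnfsf4 is claimed. Tnfsf8, the CD30 ligand, had 33.9, 24.6 and 28.4 against 37.0, 28.0 and 13.4, a difference of 0.13 (adjusted p = 0.8).

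Tnf and RANKL transcripts were not above background on any array. Tnf had signals of 7.9, 11.7 and 12.1 with BMP4, against 5.1, 4.2 and 8.9 in controls. Tnfsf11, which encodes RANKL, had 5.4, 10.7 and 3.1 against 4.6, 1.5 and 3.1, and a second set was lower still. No fold is given where both groups lie at background. The same held for Ltb, Tnfsf9 and Tnfsf14, and the probe sets of Tnfsf10 (TRAIL) and Fasl were above background on at most 2 of 6 arrays. Signals of the 30 member probe sets left out of the test ran from 0.9 to 44.4. When tested without the filter, 0 of them were called by limma (lowest adjusted p 0.359), and 0 had an unadjusted p under 0.05.

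**Figure D3:**
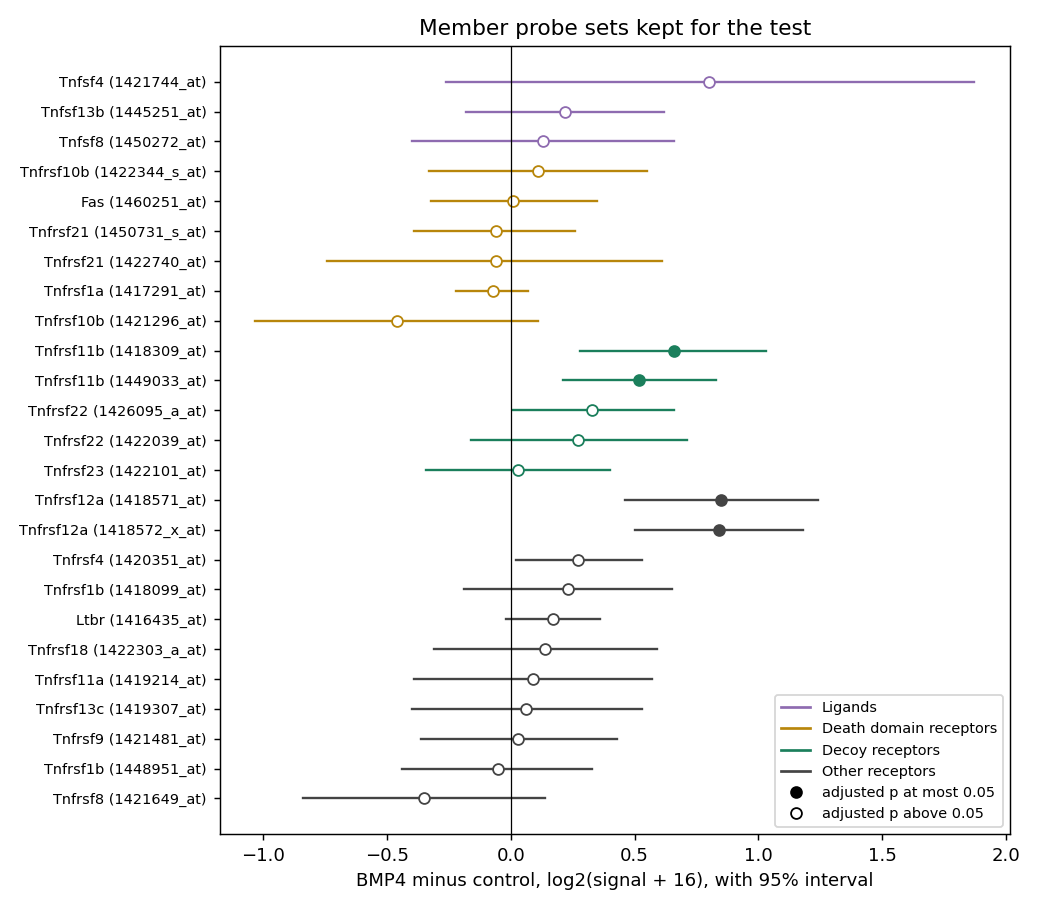
Difference between BMP4 and control in log2(signal + 16), with its 95% interval from limma, for the 25 member probe sets tested, coloured by role. Filled points mark the 4 sets with an adjusted p at most 0.05, both of Tnfrsf12a and both of Tnfrsf11b. The intervals of Tnfsf4, Tnfrsf21 and the dimmer Tnfrsf10b set are the widest.

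Several family genes lie side by side in the genome. In the RefSeq gene order 7 pairs had at most 1 protein-coding gene between them, and in 4 pairs both genes were tested. In these 4 pairs 0 genes passed, with log2 differences of 0.23 and -0.35 for Tnfrsf1b and Tnfrsf8, 0.27 and 0.14 for Tnfrsf4 and Tnfrsf18, 0.17 and -0.07 for Ltbr and Tnfrsf1a, and 0.33 and 0.03 for Tnfrsf22 and Tnfrsf23. Tnfrsf12a and Tnfrsf11b, the genes that rose, have no such neighbour in the family. Of 9 superfamily genes with other symbols, such as Eda2r and Ngfr, 4 were tested and 0 passed, with the smallest p for Eda (log2 0.22, limma adjusted p = 0.515). A second Eda set gave -0.81 (0.0713), the opposite sign, so Eda has no settled direction.

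Downstream of the receptors, 9 of 13 measured textbook targets of NF-kappaB fell with BMP4 and 0 rose, where 5.03% of all 12966 genes rose and 5.66% fell (limma, brightest probe set per gene). Their median log2 difference was -0.45, against 0.03 over all genes, and a further 7 of the 20 listed were not measured. This list and those below were chosen with earlier results of these data known, so their counts and medians are descriptions and no independent test. The count also depends on which list holds a gene. Nfkbia, itself an NF-kappaB target, was placed with the components below and not here. It gave 0.33 (adjusted p = 0.0975) on its brightest set and 0.66 (0.00221) on another. Of the 13 measured targets, the other 4 did not pass. Sod2, a mitochondrial superoxide dismutase, had every BMP4 array above every control array on its brightest set (0.21, adjusted p = 0.103), Saa3 gave 0.10, Ptgs2 -0.21 and Mmp9 -0.38. Il6, the inflammatory cytokine whose promoter is printed above, had 23.0, 25.6 and 9.1 with BMP4, against 162.3, 130.4 and 85.6 in controls. All its BMP4 arrays were under background, so it was at least 4.19-fold lower with BMP4 (geometric mean of the controls against 29.1). Il6 entered the test through the control arrays, as its BMP4 mean of 19.2 lay under the filter signal of 23.5. The fitted log2 difference was -2.01 ± 0.25 (adjusted p = 0.00045), and with the filter at the 60th percentile Il6 was not tested. Cxcl5, a neutrophil chemokine, had 132.9, 90.3 and 85.3 against 462.6, 371.7 and 342.8 (-1.79 ± 0.15, adjusted p = 3.54e-05). Vcam1, an adhesion molecule for leukocytes, had 1153.1, 1215.1 and 1048.3 against 2146.7, 2131.2 and 2082.6 (-0.89 ± 0.07, adjusted p = 2.51e-05). For these 3 genes the groups lay far apart relative to their spread, and the calls held under all alternatives that tested them. Of 6 promoter windows found for the targets that fell, 5 held a kappaB match, but the list was drawn up as known targets, so this is a property of the choice.

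**Figure D4:**
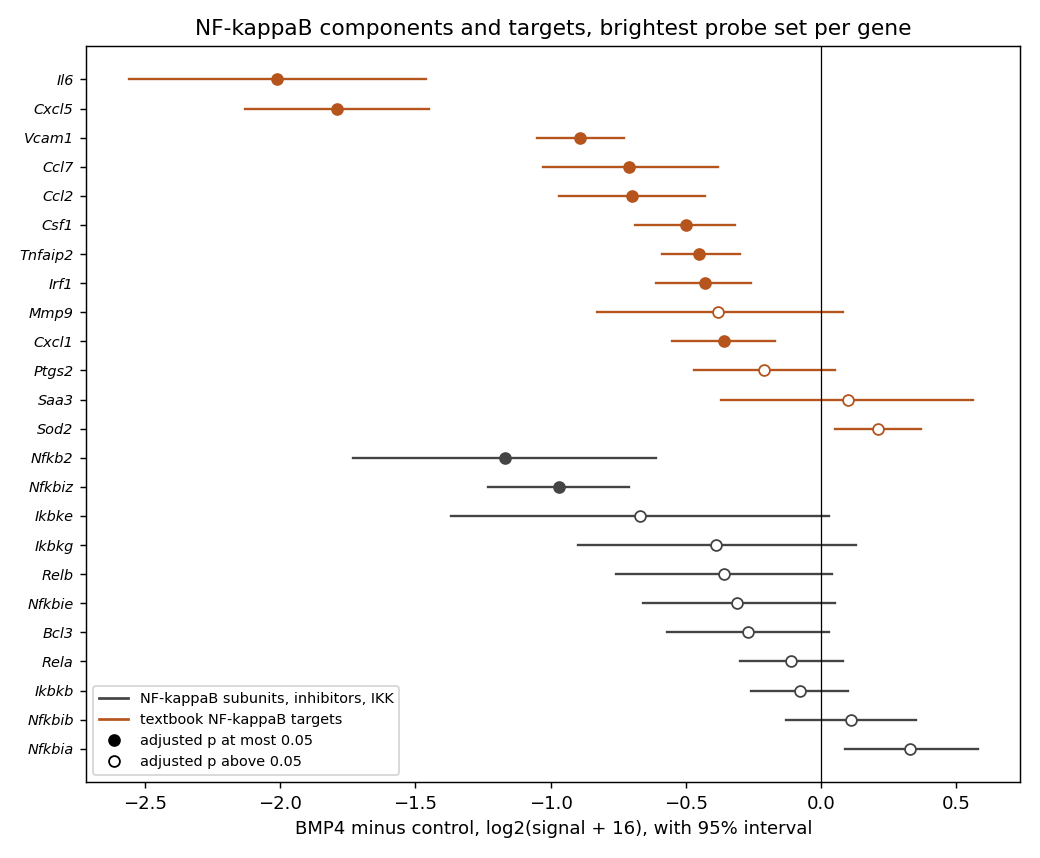
Difference between BMP4 and control in log2(signal + 16), with its 95% interval from limma, for 13 NF-kappaB target genes and 11 NF-kappaB subunits, inhibitors and kinases, brightest probe set per gene. Of the targets 9 are filled (adjusted p at most 0.05), all on the lower side, and of the components Nfkb2 and Nfkbiz.

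Of 11 measured NF-kappaB subunits, inhibitors and kinases 0 rose and 2 fell, with a median of -0.31. Beside this list and those below, 5.03% of all genes rose and 5.66% fell, with a median of 0.03. Nfkb2, the precursor of the p52 subunit, had 17.8, 40.8 and 57.9 with BMP4, against 87.6, 122.5 and 96.6 in controls (log2 -1.17 ± 0.26, limma adjusted p = 0.0155). This call was lost without control replicate 2 (0.0692), without the filter (0.0573) and without the intensity trend (0.0646), and a second set gave -0.61 (0.0632). Nfkbiz, an inducible nuclear cofactor, had 241.6, 303.1 and 208.0 against 509.5, 525.9 and 470.9 (-0.97 ± 0.12, adjusted p = 0.000355). A second Nfkbiz set gave -0.54 (0.0106), but another, dimmer one gave 0.74 (0.0493), so its direction differs between probe sets. Rela, the main activating subunit, gave -0.11 (adjusted p = 0.508), and the inhibitor Nfkbia, itself an NF-kappaB target, gave 0.33 (0.0975) on its brightest set. All 5 Nfkbia sets had every BMP4 array above every control array, and 1 of the others passed (0.66, adjusted p = 0.00221). A dimmer set of the kinase Ikbkb rose by 0.70 (adjusted p = 0.0442), while its brightest set gave -0.08 (0.61).

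Of 22 measured adaptors, ligases and kinases that link receptors to NF-kappaB, 0 rose and 2 fell, with a median of -0.05. Tnip1, a partner of the A20 brake, fell by 0.56 on the log2 scale (limma adjusted p = 0.000848). Cyld, a deubiquitinase, fell by 0.35 (0.0427), a call lost when any 1 array other than control replicate 3 was left out (0.0754 to 0.175). It was also lost with no filter (0.062), quantile normalization (0.0579), cyclic loess (0.0523) and no intensity trend (0.0855). Tnfaip3, which encodes A20, gave 0.18 (0.463), and Traf2 gave -0.00 (0.99). Of 19 death receptor and apoptosis genes 1 rose and 4 fell, with a median of -0.12. Mlkl, the executor of necroptosis, had 17.2, 31.3 and 10.5 with BMP4 against 52.1, 60.9 and 39.9 (-0.94, adjusted p = 0.0337), with 1 BMP4 array above background. It entered the test through the control arrays, and the call was lost with no filter (0.101), without the intensity trend (0.0648) and without BMP4 replicate 1 or 3 or control replicate 1 or 2 (0.0744 to 0.131). Bcl2l1, which encodes the survival protein BCL-XL, rose by 0.42 (0.0166) on its brightest set. That call was lost without BMP4 replicate 1 or 3 or control replicate 2 or 3 (0.0519 to 0.0589), with median centring (0.0555) and without the trend (0.0693). The other tested Bcl2l1 sets gave 0.33 (0.361) and 0.24 (0.357), neither past the test. Faim, an inhibitor of Fas-induced death, fell by 0.41 (0.0335), lost without any 1 array other than BMP4 replicate 2 (0.0667 to 0.118), with no filter (0.0558) and without the trend (0.0738). Cflar, the caspase-8 inhibitor c-FLIP, is named after its values were seen. It fell by 0.40 (0.00619) and by 0.60 (0.019) and 0.57 (0.0286) on its other tested sets, and the first of these calls was lost without the trend (0.0533).

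Shedding of TNF ligands and receptors is carried out mainly by ADAM17, which TIMP3 inhibits. Timp3 had 4237.7, 4247.6 and 4057.5 with BMP4, against 2549.1, 2939.3 and 3125.8 in controls, a log2 difference of 0.54 ± 0.09 (SE, limma adjusted p = 0.00256). The groups did not overlap, and its 3 other probe sets rose too (0.75, 0.76 and 0.94). Adam17 gave -0.14 (adjusted p = 0.358) and Adam10, another sheddase, 0.15 (0.372). Of 9 measured genes of shedding and soluble TNF-related proteins 1 rose and 1 fell, with a median of -0.03. The one that fell was C1qtnf1, a secreted protein with a TNF-like domain (-0.54, 0.0239), lost without BMP4 replicate 1 or 2 or control replicate 2 or 3 (0.0522 to 0.109), with no filter (0.0523) and without the trend (0.0643).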

How the data were processed

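The values are linear array intensities that the authors deposited, made with GCOS 1.3, per the submitters' processing notes. How signals were scaled or corrected for background is not given in the sources used here. No scaling was added in the main test. For the 2% trimmed mean only a single rounded value, 150, was kept, which does not show the level of each array. Median signals ran from 37.6 to 42.6 with BMP4 and from 35.2 to 37.3 in controls, and median centring was run as an alternative. Identifiers of all 33 member genes matched the GRCm38.p6 table, used for names and gene order. Bacterial and other control probe sets (64) were removed, values were taken as log2(signal + 16), and probe sets above the 40th percentile of the mean (27022) entered limma 3.58.1 under R 4.3.3, using lmFit and eBayes with an intensity trend. P-values are two-sided, adjusted over all tested probe sets by Benjamini-Hochberg, and called at 0.05. The code was tested on simulated data. This scale understates fold changes of dim genes. The number of arrays, 3 a group, limits precision.

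Members and pathway lists were chosen with earlier results of these data known. Values in every array are given for members that passed, for the 3 brightest genes and the smallest p in each role group, and for 9 genes fixed by name. Of each pathway list, up to 3 called genes by size are named, or the one with the smallest p. Other genes were named after their values were seen. In all, 17 alternatives were run.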

Additional observations from a re-analysis of the deposited data

How the results depend on the processing

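The rise of Tnfrsf12a on at least 1 probe set and the absence of any lower member held under all 17 alternatives. The number of member probe sets called higher was 4, but 2 with no filter, 2 with median centring and 1 without the intensity trend, and 2 to 3 when any 1 array was left out (without BMP4 replicate 3, 1 of the 3 was Tnfsf4). Probe sets called over the whole array went from 2464 to 1422 without the trend and to 1622 to 1996 with 1 array left out, lowest without control replicate 2. Over the pathway lists together 2 genes were called higher and 18 lower. These were 1 higher with median centring, 3 higher with quantile normalization, and 1 higher and 9 lower without the trend. With no filter 11 were lower, and with 1 array left out 1 to 2 were higher and 10 to 15 lower. Lower NF-kappaB targets numbered 7 to 9 with 1 array left out. Over all tested probe sets, correlations of deviations of same-numbered arrays were 0.0102, -0.00261 and -0.0725. Such values cannot settle whether the samples were paired, and the labels give only replicate numbers. With a replicate block, 3 member probe sets and 2090 of all were called, and the brighter Tnfrsf11b set did not pass (adjusted p = 0.0676), nor did Cyld (0.0773), Xiap (0.0888) and Faim (0.0622). Median centring moved the median log2 difference from 0.03 to -0.07. Depth is signal over background here, and members under 29.1 on every array have no measured direction.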

Other observations

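Some dim member probe sets took either a low or a high signal irrespective of group. Tnfrsf17, the receptor BCMA of plasma cells, had 6.8, 36.5 and 5.2 with BMP4 and 33.3, 5.6 and 34.7 without it, so that 3 arrays lay above the background of 29.1 and 3 far under it. The brightest Cd40 set had 44.4 and 33.3 in replicate 1 of the BMP4 and control groups and between 5.4 and 12.9 on the other 4 arrays. A Tnfsf10 set had 44.1 on BMP4 replicate 1 and 5.7 to 20.5 on the others. These values are given as they stand, and no cause was tested.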
